A study of Mus musculus with 3 samples.

Results

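Ccer2, R3hdml, Fam81b, Tmem91, Grp and Cryab are 6 of the 31053 genes counted in single cells of mouse cochlear organoids. They were chosen by symbol because their levels were higher on day 5 than on day 25 of differentiation in hair cell-like cells, so that difference is given as a description only. All 6 symbols were found in the gene tables. Their levels were taken in cells with at least 2 transcript counts (unique molecular identifiers, UMIs) of Pou4f3, the gene of a hair cell transcription factor, and in all other cells. These are called Pou4f3 cells and other cells. A working description of the set as genes of transient day 5 hair cells held only in part. Against day 25 all 6 were higher on day 5, but Ccer2, R3hdml, Grp and Cryab stood higher still in the Pou4f3 cells of expansion cultures. Of these, only Ccer2 and Cryab differed at least 2-fold between expansion and day 5.

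The organoids are spheres grown in 3D culture from Lgr5+ cochlear progenitor cells of C57BL/6 mice, and they were profiled in 3 groups. The expansion group was at passage 2 (day 8), in DMEM/F-12 medium with GlutaMAX, N2, B27 and penicillin/streptomycin, to which LPA, Y-27632, CHIR99021, IGF, bFGF and EGF were added. The other groups went through the same expansion and were then moved to a differentiation medium with RA, A83-01, Shh, BDNF and bFGF, with LY4115775 present during the first 5 days only, and were collected on day 5 or day 25. Single living cells were sorted by flow cytometry with DAPI and made into 10x Genomics 3' libraries, 1 library in each group. How many mice or cultures went into a library is not given in the sources used here.

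Hair cells are the mechanosensory cells of the inner ear. They arise from progenitors under the transcription factor Atoh1, express Pou4f3 and Gfi1 soon after, and later acquire hair bundles, synapses and, in outer hair cells, the motor protein prestin (Slc26a5). The 6 genes belong to different families. Grp encodes gastrin-releasing peptide, a neuropeptide of the bombesin family that acts through the receptor Grpr. R3hdml encodes a secreted protein of the CAP superfamily, Ccer2 a glutamate-rich coiled-coil protein, Tmem91 a membrane protein of the dispanin family and Fam81b a coiled-coil protein. Cryab encodes alphaB-crystallin, a small heat shock protein that keeps damaged proteins from aggregating.

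Filtering kept 25296 expansion, 13244 day 5 and 6139 day 25 cells, which held 173963718, 131132861 and 72869952 UMIs. The Pou4f3 cells numbered 126 in expansion (0.498% of kept cells, exact Clopper-Pearson 95% interval 0.415% to 0.593%), 317 on day 5 (2.39%, 2.14% to 2.67%) and 1543 on day 25 (25.1%, 24.1% to 26.2%). They had a median of 6187, 8494 and 9652 UMIs per cell. The median was 4559, 5809 and 8277.5 UMIs in the other cells. A share of 18.6% of the day 5 and 14.9% of the day 25 Pou4f3 cells had under 1% mitochondrial UMIs, against 1 cell of 126 in expansion. Pairs of libraries shared 22 to 133 cell barcodes by sequence, and at most 17 Pou4f3 cells of a library had a barcode found in a given other library. All 27 genes of a hair cell list had UMIs in each set of Pou4f3 cells, with a summed level of 7986 CPM in expansion, 22460 CPM on day 5 and 17603 CPM on day 25, against 191, 484 and 668 CPM in the other cells.

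Levels are given as CPM, a gene's UMIs summed over the cells of a set and scaled to a common total, and folds are ratios of CPM. The 95% intervals in parentheses are exact Poisson intervals for levels and conditional exact binomial intervals for ratios, and cover counting error only. A gene was called higher, or lower, where CPM + 1 differed at least 2-fold, among genes with at least 20 CPM in either sum, which are called measured. With 1 library in each group no test between groups was possible, and group and library cannot be told apart. Several comparisons share a library or a set of cells.

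Ccer2 (ENSMUSG00000096257) lies on chromosome 7, 28756174 to 28758968, plus strand, in GRCm38 with GENCODE M21 annotation. R3hdml (ENSMUSG00000078949) is at 163492318 to 163502612 on chromosome 2, plus strand, and Fam81b (ENSMUSG00000109228) at 76201708 to 76305072 on chromosome 13, minus strand. Tmem91 (ENSMUSG00000061702) lies on chromosome 7, 25669139 to 25675166, minus strand. Grp (ENSMUSG00000024517) is on chromosome 18, 65872820 to 65886596, and Cryab (ENSMUSG00000032060) on chromosome 9, 50751325 to 50756636, both on the plus strand. All 6 are annotated as protein-coding.

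Each of the 6 overlaps a gene on the opposite strand, and the strand setting of the counting is not given in the sources used here. Of the partners in the matrices, Nfkbib, which overlaps Ccer2, was at 14.3, 20.4 and 25.1 CPM in the Pou4f3 cells of expansion, day 5 and day 25. Exosc5, which overlaps Tmem91, was at 45.9, 79.3 and 45.2 CPM in the same cells. Hnf4aos, the partner of R3hdml, had 0 UMIs, and Gm31219, the partner of Fam81b, had at most 4 UMIs in any of the 6 sums. Levels of Hspb2, the partner of Cryab, are given with its family.

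RefSeq promoter windows (GRCm38.p6, 250 bases before to 50 after the start) were matched for Ccer2, R3hdml and Tmem91. The 250 bases before the start are shown, 5′ to 3′ on the strand of the gene, because these genes were high in the same Pou4f3 cells. They are chr7:28755924-28756173 (plus strand) for Ccer2, chr2:163492068-163492317 (plus strand) for R3hdml and chr7:25675167-25675416 (minus strand) for Tmem91. Capitals mark matches to the motifs searched.
Ccer2: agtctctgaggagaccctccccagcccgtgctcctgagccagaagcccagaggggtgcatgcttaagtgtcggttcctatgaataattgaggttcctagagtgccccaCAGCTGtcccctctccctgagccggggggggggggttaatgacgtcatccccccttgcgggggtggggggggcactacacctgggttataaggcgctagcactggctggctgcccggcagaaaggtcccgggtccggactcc
R3hdml: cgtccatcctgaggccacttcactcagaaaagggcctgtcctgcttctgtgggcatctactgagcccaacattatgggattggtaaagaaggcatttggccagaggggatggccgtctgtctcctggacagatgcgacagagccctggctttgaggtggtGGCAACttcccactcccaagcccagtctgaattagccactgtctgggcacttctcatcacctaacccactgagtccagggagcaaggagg
Tmem91: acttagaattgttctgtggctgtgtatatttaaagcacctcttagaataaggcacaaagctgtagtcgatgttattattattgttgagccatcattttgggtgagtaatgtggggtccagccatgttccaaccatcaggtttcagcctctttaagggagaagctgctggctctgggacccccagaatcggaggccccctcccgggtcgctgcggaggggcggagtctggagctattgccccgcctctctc

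The motifs were searched on both strands of the 300-base windows as plain letter matches. CAGCTG, an E-box of the Atoh1 type, was found in the Ccer2 window 142 bases before the start, and in 16.3% of all 32851 promoters. GTTNCC, an RFX-type site, was found on the minus strand of the R3hdml window at 90 bases before the start, where the plus strand reads GGCAAC, and in 45.3% of promoters. The Tmem91 window held none of the motifs. ATTAAT (POU4F type, 4.75% of promoters), GAANNTTC (heat shock element, 7.86%) and AATCNNNGC (GFI1, 10.3%) had no match in these windows. The windows had 63.3%, 55.3% and 55.3% G and C, against a median of 52.7% over all promoters. No motif was common to the 3 windows. Grp, on chromosome 18, was left out of the search, and Fam81b and Cryab had no window.

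Ccer2 stood at 3808 CPM (3691 to 3929) in the Pou4f3 cells of expansion, 1464 CPM (1426 to 1502) on day 5 and 80.1 CPM (76.1 to 84.3) on day 25. In the other cells it was at 12.5 CPM (11.99 to 13.0), 23.2 CPM (22.4 to 24.1) and 8.40 CPM (7.65 to 9.21). Ccer2 UMIs were found in 98.4% (94.4% to 99.8%) of the Pou4f3 cells of expansion, in 84.2% (79.7% to 88.1%) on day 5 and in 28.4% (26.1% to 30.7%) on day 25. The order in Pou4f3 cells was therefore expansion, day 5, day 25, with no overlap of the intervals. A cell type that should lack the gene gives the background for such shares: in 368 day 5 cells with collagen UMIs and no Epcam UMI, with a median of 9364.5 UMIs, 27 cells (7.34%, 4.89% to 10.5%) had a Ccer2 UMI.

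Grp stood at 619.9 CPM (573 to 669.5) in the Pou4f3 cells of expansion, 477 CPM (456 to 499) on day 5 and 27.4 CPM (25.0 to 29.9) on day 25. Its level in the other cells was 2.34 CPM (2.11 to 2.58), 8.87 CPM (8.36 to 9.40) and 1.501 CPM (1.19 to 1.86). The Pou4f3 cells with a Grp UMI were 115 of 126, 219 of 317 and 182 of 1543. Grp thus had the same order of groups as Ccer2, with expansion and day 5 closer together.

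R3hdml was at 89.8 CPM (72.6 to 109.9) in expansion Pou4f3 cells, 55.9 CPM (48.8 to 63.7) on day 5 and 0.548 CPM (0.263 to 1.01) on day 25. The day 25 value rests on 10 UMIs in 9 of 1543 cells. Outside the Pou4f3 cells R3hdml was at 0.330 CPM (0.250 to 0.427) and 0.653 CPM (0.520 to 0.809) in expansion and on day 5, and at 0 of 4596 cells on day 25, where 3 UMIs would be 0.0549 CPM. R3hdml was therefore close to undetected on day 25 in and outside the Pou4f3 cells.

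Tmem91, the membrane protein gene, was at 61.1 CPM (47.1 to 78.1) in expansion Pou4f3 cells, 116 CPM (105 to 127) on day 5 and 4.11 CPM (3.23 to 5.15) on day 25. Its levels in the other cells were 0.625 CPM (0.512 to 0.754), 1.22 CPM (1.03 to 1.43) and 0.677 CPM (0.477 to 0.933). Fam81b was at 7.64 CPM (3.30 to 15.1; 8 UMIs) in expansion, 50.8 CPM (44.1 to 58.4; 202 UMIs) on day 5 and 1.32 CPM (0.843 to 1.96; 24 UMIs) on day 25. Its other cells held 4, 98 and 2 UMIs, or 0.0231, 0.771 and 0.0366 CPM. For these genes the day 5 Pou4f3 cells held the highest of the 6 levels, with intervals apart from the rest.

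Cryab differed from the other genes in being high outside the Pou4f3 cells. It was at 2196 CPM (2107 to 2288), 934 CPM (904 to 964) and 62.3 CPM (58.7 to 66.02) in the Pou4f3 cells of expansion, day 5 and day 25. The other cells held 2039 CPM (2032 to 2046), 365 CPM (361 to 368) and 346 CPM (341 to 351). The Pou4f3 cells were thus level with the other cells in expansion, above them on day 5 and below them on day 25. Pou4f3 itself, used for the gate, had the opposite order of groups from Cryab in these cells, at 445, 617 and 803 CPM.

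**Figure D1:**
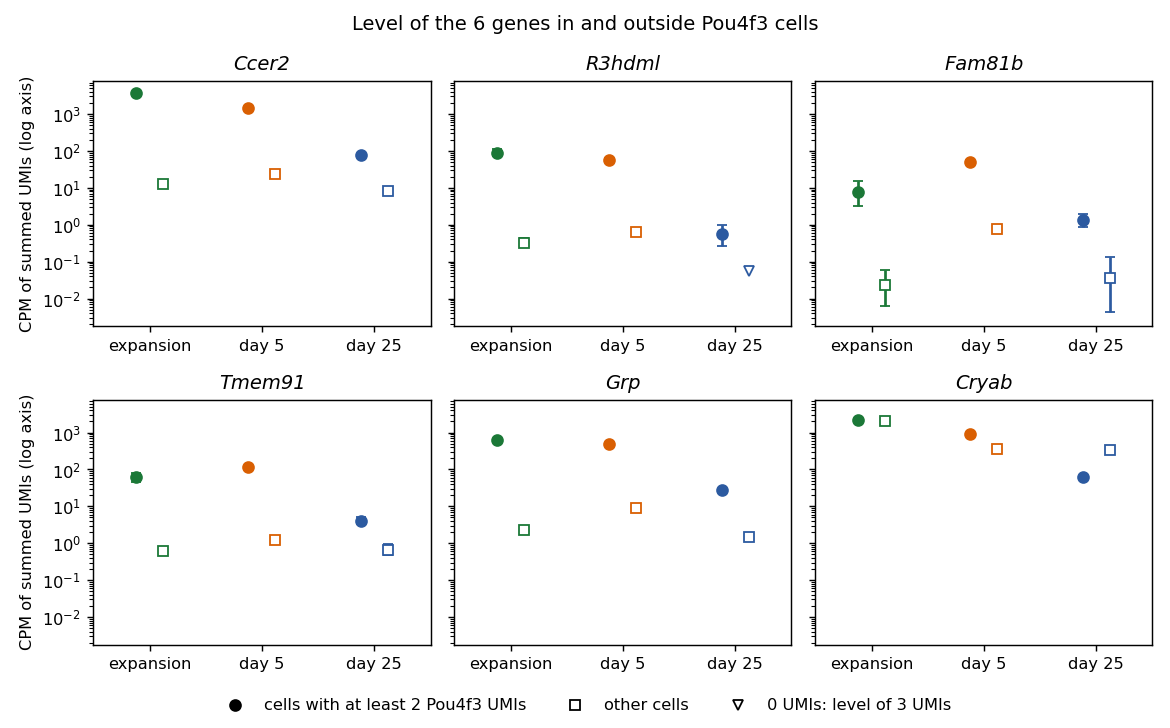
Level of each gene in CPM (log axis) in Pou4f3 cells (filled circles) and other cells (open squares) of the expansion, day 5 and day 25 libraries. Bars are exact 95% Poisson intervals, and the open triangle marks the level of 3 UMIs where R3hdml had 0 UMIs. Filled circles are lowest on day 25 in all 6 panels, and Cryab alone has its day 25 circle below its square.

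The contrast that chose the genes, day 5 against day 25 in Pou4f3 cells, is given without a test. R3hdml was 102-fold higher on day 5 (54.4 to 215), Fam81b 38.6-fold (25.2 to 61.7), Tmem91 28.2-fold (22.0 to 36.4), Ccer2 18.3-fold (17.2 to 19.4), Grp 17.4-fold (15.8 to 19.3) and Cryab 14.99-fold (14.0 to 16.0). All 6 were called higher, where 8.42% of 7113 genes were higher and 19.1% lower, and their median log2 difference was 4.33 against -0.25 over all genes. They held ranks 2, 5, 7, 9, 11 and 14 by size of the difference. Il25, next below Cryab at rank 15, was at 79.8 against 4.61 CPM. Col2a1, a cartilage collagen gene, held rank 1 (262 against 3.62 CPM). Among the genes between them in rank, 1110017D15Rik (302 against 8.44 CPM), Fam92b (40.5 against 0.822 CPM) and Tac4 (42.5 against 1.15 CPM) were at 5.32, 0.802 and 0.385 CPM in the other day 5 cells. Col2a1, and Otor (170 against 9.38 CPM) and Mfap2 (72.7 against 3.34 CPM) from the same range of ranks, stood higher in the other day 5 cells, at 1461, 2222 and 474 CPM. Of the 599 genes called higher, 293 were also called higher in day 5 Pou4f3 cells than in other day 5 cells, the 6 genes among them. Over all 7111 genes measured in that second comparison, 20.1% were higher. Both comparisons use the same day 5 Pou4f3 cells, so nothing further is read from the overlap.

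Day 5 against expansion in Pou4f3 cells split the set. Fam81b was called higher on day 5, 6.65-fold (3.31 to 15.6). Ccer2 was 2.60-fold lower (2.50 to 2.71) and Cryab 2.35-fold lower (2.23 to 2.48). R3hdml, at 0.622 times its expansion level (0.487 to 0.801), Grp, at 0.769 times (0.703 to 0.842), and Tmem91, at 1.89 times (1.46 to 2.50), were in neither class. The count was thus 1 of 6 higher and 2 of 6 lower, where 15.5% of 6699 genes were higher and 8.67% lower. For the 6 genes the median log2 difference was -0.53, and for all genes 0.15. Tmem91 was called higher, at a log2 difference of 1.13, when called doublets were kept.

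Day 25 against expansion gave a lower level for all 5 genes measured. R3hdml was 164-fold lower (85.2 to 353), Ccer2 47.5-fold (44.8 to 50.5), Cryab 35.3-fold (32.8 to 37.9), Grp 22.7-fold (20.1 to 25.5) and Tmem91 14.9-fold (10.5 to 21.03). Over all 7319 genes measured 11.4% were lower and 28.7% higher. Fam81b, under 20 CPM in both sums, was not measured in this sense, and its ratio was 5.81 (2.26 to 13.4) in the same direction. The day 25 cells are those of the contrast that chose the genes, so nothing further is read from these differences.

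Pou4f3 cells were compared with the other cells of the same library, which shows in which cells the genes were found. In expansion, Ccer2 was 304-fold higher in Pou4f3 cells (289 to 321), R3hdml 272-fold (194 to 385), Grp 265-fold (234 to 301) and Tmem91 97.9-fold (70.7 to 135). Cryab was at 1.08 times the level of the other cells (1.03 to 1.12). Fam81b was below that bound. That gives 4 of 5 called higher, where 14.6% of 6415 genes were higher and 9.03% lower. Ccer2 had the largest log2 difference of CPM + 1 of all genes measured, at 8.14 against 8.12 for Pou4f3. By the ratio of CPM, Pou4f3 stood above Ccer2, at 733-fold (592 to 915).

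On day 5 all 6 were called higher in Pou4f3 cells, where 20.1% of 7111 genes were higher and 17.6% lower. The folds were 94.98 for Tmem91 (79.0 to 115), 85.6 for R3hdml (66.2 to 112), 65.97 for Fam81b (51.6 to 84.8), 63.1 for Ccer2 (60.3 to 65.9) and 53.8 for Grp (49.9 to 57.9). Cryab was 2.56-fold higher (2.48 to 2.65), and was in neither class, at a log2 difference of 0.95, with a gate of 1 Pou4f3 UMI. The day 5 cells of this contrast are those that chose the genes.

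On day 25 Grp was 18.2-fold (14.4 to 23.3) and Ccer2 9.53-fold (8.58 to 10.6) higher in Pou4f3 cells, so 2 of the 3 genes measured were higher, where 19.7% of 7692 genes were. Cryab was 5.55-fold lower (5.23 to 5.90), where 18.4% of genes were lower. The others were below the 20 CPM bound. R3hdml had 10 UMIs against 0, a ratio of 9.98 when set against a floor of 3 UMIs over the other cells, and the exact lower 95% limit of its ratio was 6.71. Tmem91 was at 6.07 times (4.04 to 9.26) and Fam81b, with 2 UMIs in the other cells, at 35.9 times (8.92 to 314) the level of the other cells. Apart from Cryab, the genes thus kept a higher level in Pou4f3 cells on day 25, at a small part of their day 5 level.

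In the other cells most of the genes were too low for a call between day 5 and day 25. Ccer2 was 2.76-fold higher on day 5 (2.50 to 3.05) and Cryab was at 1.05 times its day 25 level (1.04 to 1.07), so 1 of 2 genes measured was higher, where 5.48% of 6866 genes were higher and 17.6% lower. Below the bound, Fam81b was at 21.05 times (5.67 to 176; 98 against 2 UMIs), Grp at 5.91 times (4.72 to 7.49) and Tmem91 at 1.80 times (1.25 to 2.65) its day 25 level. R3hdml had 83 UMIs against 0, a ratio of 11.9 when set against 3 UMIs, with an exact lower 95% limit of 9.45. All 6 ratios were thus above 1, with levels outside the Pou4f3 cells under 1 CPM for R3hdml and Fam81b. Without the cells of 1 Pou4f3 UMI, or without cells under 2000 UMIs, Ccer2 fell below the bound of 20 CPM in the other cells and was not called, at ratios of 2.36 and 2.37. Against expansion, Cryab in the other day 5 cells was 5.59-fold lower (5.54 to 5.65), where 8.02% of 6385 genes were lower and 15.1% higher, and Ccer2 was at 1.86 times (1.75 to 1.96).

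Part of the signal outside the gate lay in cells with 1 Pou4f3 UMI, which fell just short of it, in expansion and on day 5. These were 105 of the other cells in expansion (0.417%) and held 1182 of 2163 Ccer2 UMIs (54.6%), 194 of 404 Grp UMIs (48.0%) and 25 of 57 R3hdml UMIs (43.9%). On day 5 they were 410 cells (3.17%) and held 38.8% of Fam81b, 30.1% of R3hdml, 25.2% of Tmem91, 21.4% of Ccer2 and 16.6% of Grp UMIs. For Cryab the share was 0.512% in expansion and 4.73% on day 5, near the share of cells. On day 25 they were 316 cells (6.88%) and held 8.93% of Ccer2, 8.11% of Tmem91, 18.3% of Grp and 3.05% of Cryab UMIs. The level in other day 5 cells was 1.05% to 1.86% of that in Pou4f3 cells for the 5 genes besides Cryab, against a median of 0.904% (0.316% to 15.6%) for 26 hair cell genes. For Cryab it was 39.05%. On day 25 it was 10.5% for Ccer2, 16.5% for Tmem91, 5.49% for Grp and 2.78% for Fam81b, against a median of 2.09% for the hair cell genes.

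Levels were also taken by the number of Pou4f3 UMIs in a cell. On day 5, Ccer2 was at 18.9, 141, 807, 1567 and 1538 CPM in cells with 0, 1, 2, 3 to 4 and 5 or more Pou4f3 UMIs. Grp was at 7.67, 41.7, 202, 489 and 512 CPM in the same bins. The levels went up to the bin of 3 to 4 UMIs and differed little beyond it. In expansion, Ccer2 was already at 1436 CPM with 1 Pou4f3 UMI and at 3964 CPM with 2. On day 25 it was at 8.01, 16.7, 49.3, 47.6 and 86.2 CPM. Cryab was at 351, 235, 126, 62.7 and 57.8 CPM in the day 25 bins and between 2038 and 2389 CPM in all bins of expansion. R3hdml had 0 UMIs in the day 25 bins under 5 Pou4f3 UMIs, and Fam81b had 0 in the day 25 bin of 3 to 4 and in the expansion bin of 2. Ccer2 and Grp thus went up with Pou4f3 UMIs on day 5, while Cryab went down on day 25. The median depth was 5841, 3086.5, 2302, 4099.5 and 18178.5 UMIs over the day 5 bins. On day 25 it was 8396.5, 5113.5, 3634.5, 5140 and 12073 UMIs. Depth thus fell up to the bin of 2 on both days and was highest in the top bin. In expansion it went up from 4558 UMIs in the lowest bin to 10931 in the top bin. The part of depth was not tested.

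**Figure D2:**
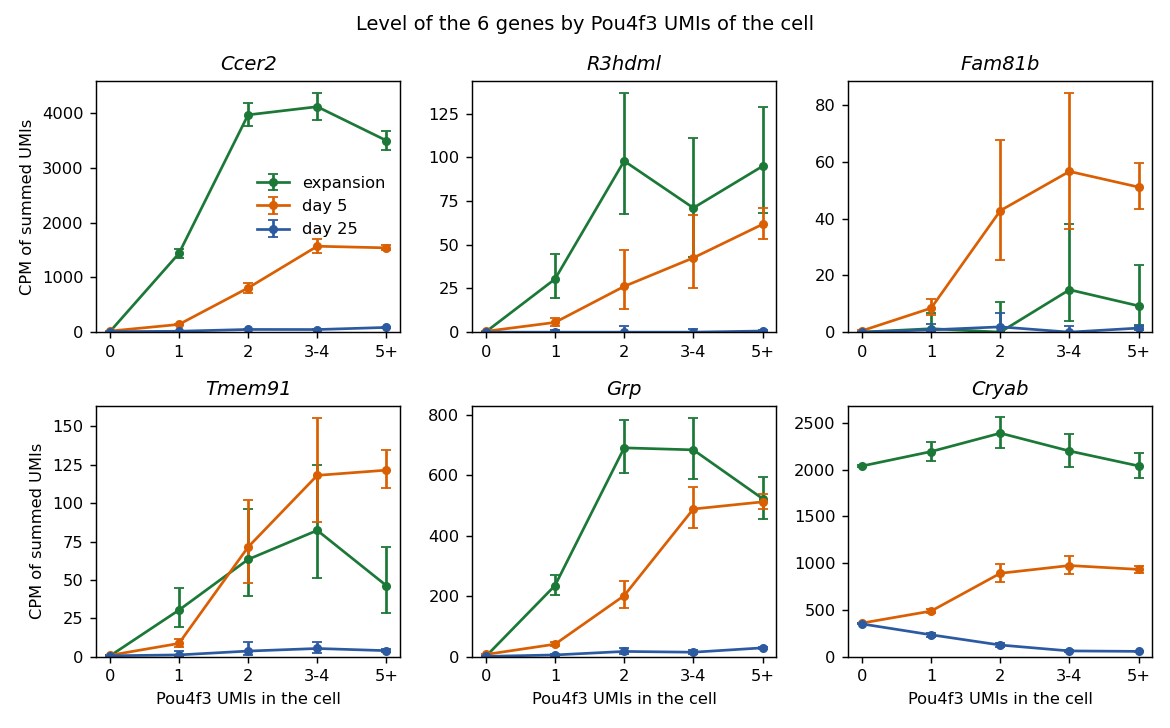
Level of each gene in CPM (linear axes that differ between panels) in cells with 0, 1, 2, 3 to 4 and 5 or more Pou4f3 UMIs, in expansion, day 5 and day 25. Points carry exact 95% Poisson intervals. The day 25 line of Cryab goes down with Pou4f3 UMIs while its day 5 line goes up to the bin of 3 to 4.

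The level on day 25 was not even over the Pou4f3 cells. Cells with a UMI of Atoh1, the early hair cell factor, were 152 of 1543 and had a median of 14852.5 UMIs against 9162 in the rest. Ccer2 was at 306 CPM (285 to 328) with and 42.6 CPM (39.4 to 45.9) without an Atoh1 UMI. Grp was at 106 CPM (94.0 to 119) and 14.3 CPM (12.4 to 16.3), and Cryab at 146 CPM (132 to 162) and 48.3 CPM (45.0 to 51.9). For Tmem91 the levels were 6.92 CPM (4.10 to 10.9) and 3.65 CPM (2.76 to 4.72), and for Fam81b 2.31 CPM (0.847 to 5.03) and 1.15 CPM (0.682 to 1.82), with overlapping intervals. R3hdml had 7 of its 10 UMIs in the Atoh1 cells. Ccer2, Grp and Cryab were thus higher in the Atoh1 cells with intervals apart, a difference within 1 library. Their UMIs were concentrated in few cells. For each gene, the 155 day 25 Pou4f3 cells with most UMIs held 77.3% for Ccer2, 94.6% for Grp and 71.7% for Cryab. The intervals cover counting error and not this spread between cells.

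A split by Slc26a5, a gene of mature outer hair cells, ran the other way for the levels of Ccer2, Cryab, Grp and Tmem91. In the 457 day 25 Pou4f3 cells without a Slc26a5 UMI, Ccer2 was at 236 CPM (218 to 255), Cryab at 195 CPM (179 to 213) and Grp at 69.0 CPM (59.4 to 79.5). In the 1086 cells with a UMI they were at 52.7, 38.9 and 20.0 CPM. The cells without were shallower, with a median of 4369 against 11491 UMIs. The 43 cells with Atoh1 and without Slc26a5 UMIs held the highest levels, with Ccer2 at 978 CPM (892 to 1071), Cryab at 465 CPM (406 to 530), Grp at 289 CPM (243 to 341) and Tmem91 at 16.6 CPM (7.17 to 32.7). Fam81b had 1 UMI there, at 2.08 CPM (0.0526 to 11.6), too few to place it above or below the 1.32 CPM of all day 25 Pou4f3 cells. Ccer2 in these day 25 cells stood below the 1464 CPM of day 5 and above the 80.1 CPM of all day 25 Pou4f3 cells.

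On day 5, 130 Pou4f3 cells had an Atoh1 UMI and 187 had none, with a median of 18291.5 against 3556 UMIs. Ccer2 was at 1722 CPM (1673 to 1772) with and 898 CPM (846 to 952) without Atoh1. Grp was at 563 against 288 CPM, R3hdml at 67.1 against 31.3 CPM, Tmem91 at 134 against 75.4 CPM and Cryab at 1050 against 679.8 CPM, with no overlap of intervals. Fam81b was at 49.5 CPM (41.5 to 58.6) and 53.8 CPM (41.7 to 68.3), which overlap. Depth thus moves with this split, and its part was not tested. In cells with under 1% mitochondrial UMIs the day 5 level of Fam81b was 103 CPM (63.8 to 158) against 48.0 CPM (41.3 to 55.5) in the rest, and that of Ccer2 1134 against 1481 CPM.

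**Figure D3:**
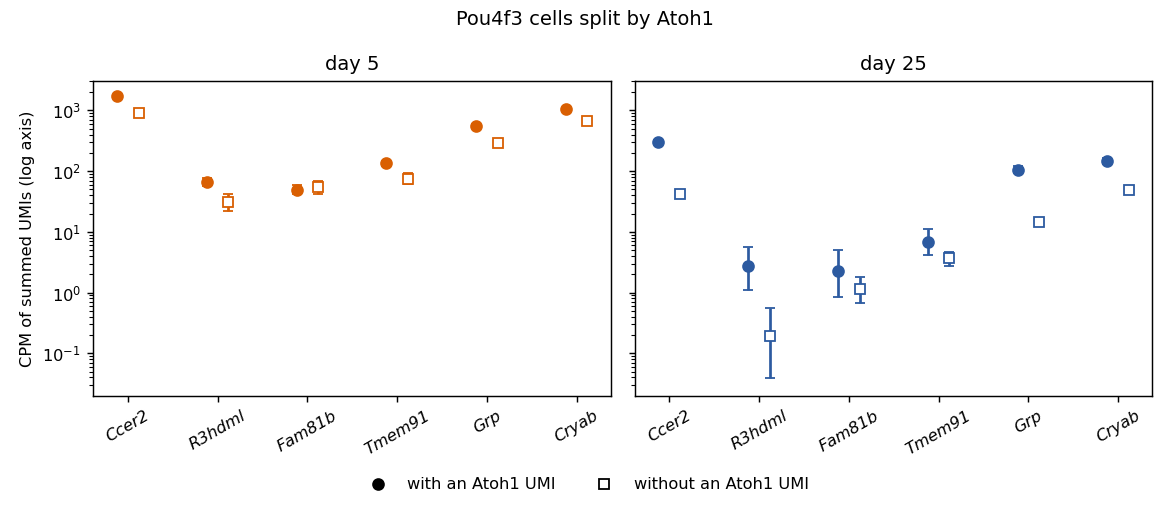
Level of each gene in CPM (log axis) in Pou4f3 cells with (filled circles) and without (open squares) an Atoh1 UMI, on day 5 and day 25, with exact 95% Poisson intervals. Ccer2, Grp and Cryab are higher in the Atoh1 cells in both panels, and the intervals of Fam81b overlap in both.

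The genes were also counted per cell after thinning each cell to 2000 UMIs, which left out 4, 51 and 44 shallower Pou4f3 cells. At least 3 of the 6 were found in 93 of 122 expansion Pou4f3 cells (76.2%, 67.7% to 83.5%), 119 of 266 on day 5 (44.7%, 38.7% to 50.9%) and 16 of 1499 on day 25 (1.07%, 0.611% to 1.73%). Without thinning the shares were 92.1%, 71.0% and 5.83%. None of the 6 was found in 1 cell of 122, 18 of 266 and 1189 of 1499. All 6 were found in 2 of these thinned cells, both of day 5. Among other cells, thinned in the same way, at least 3 were found in 54 of 22417 (0.241%), 61 of 11184 (0.545%) and 2 of 4268 (0.0469%). The share of such cells was thus highest in the Pou4f3 cells of expansion, then in those of day 5. Cryab, found after thinning in 96.7% of expansion Pou4f3 cells and 82.2% of other expansion cells, adds to the expansion share. The genes were chosen for higher day 5 than day 25 levels in Pou4f3 cells, so that difference is a description only. The intervals are over cells of 1 library, which are not replicates.

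**Figure D4:**
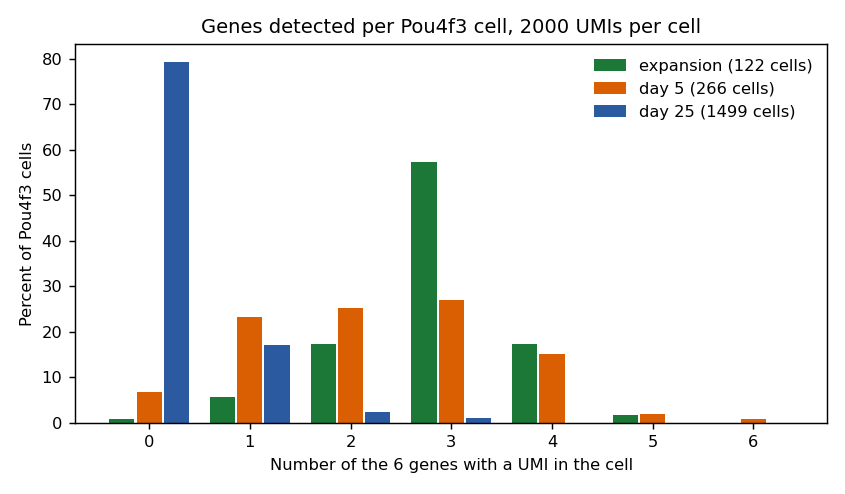
Percent of Pou4f3 cells (vertical axis) by how many of the 6 genes had a UMI after thinning to 2000 UMIs per cell, in expansion (122 cells), day 5 (266 cells) and day 25 (1499 cells). The tallest bar is at 3 genes in expansion and at 0 genes (79.3%) on day 25. The genes were chosen for lower levels on day 25 than on day 5 in these cells.

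Over the 317 day 5 Pou4f3 cells, which share a library and differ in depth, levels of Ccer2 and Grp had a Pearson correlation of 0.59, Ccer2 and R3hdml 0.44, and R3hdml and Grp 0.42. Ccer2 and Tmem91 had 0.40. Fam81b had between -0.12 (with Cryab) and 0.05 (with Grp). These are descriptions of cells in 1 library. All 107 cells with an R3hdml UMI also had a Ccer2 UMI, and 102 of them had a Grp UMI. Ccer2 UMIs were in 267 of the 317 cells, so unrelated genes would give 90.1 cells with both R3hdml and Ccer2. Of the 120 cells with a Fam81b UMI, 114 had a Ccer2 UMI, where 101 would by the same reckoning, and 52 had an R3hdml UMI, where 40.5 would. Depth moves with these counts, and its part was not tested. Fam81b had the lowest correlations with the other genes.

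Other members of the 6 families were compared between day 5 and day 25 Pou4f3 cells. Over all 7113 genes measured, 8.42% were higher and 19.1% lower on day 5. The 6 genes were chosen by this contrast, so they count as higher in their families by the choice. In the small heat shock family, Hspb2, which overlaps Cryab on the opposite strand, was at 206, 36.2 and 2.63 CPM in expansion, day 5 and day 25. The day 5 level was 13.8 times that of day 25. Its levels in the other cells were 115, 29.1 and 12.8 CPM, the same order of groups as for Cryab. Both family members measured were higher on day 5, Cryab, which this contrast chose, and Hspb2. Hspb1, at 7.80 against 11.7 CPM, and Hspb8, at 0.755 against 2.52 CPM, were below the bound. Of 10 larger chaperone and heat shock factor target genes measured, 0 were higher and 2 lower, Hspa4l at 144 against 370 CPM and Hsph1 at 105 against 245 CPM, with a median log2 difference of -0.53.

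In the CAP superfamily, 2 of 3 genes measured were higher on day 5, R3hdml, itself chosen by this contrast, and Clec18a (171 against 51.4 CPM). Crispld1 was at 56.4 against 58.8 CPM. Among dispanin genes 3 of 4 were higher, the chosen Tmem91, Ifitm3 (51.1 against 13.1 CPM) and Ifitm1 (42.8 against 13.8 CPM). Ifitm2 was at 283 against 233 CPM. Unlike Tmem91, Ifitm3 was higher in the other day 5 cells, at 549 CPM. Nmb, the gene of the related peptide neuromedin B, was at 27.7 and 28.0 CPM, so the difference in Grp was not shared by it. The receptor gene Grpr had 0 UMIs in the Pou4f3 cells of all 3 libraries, and no receptor gene of the family passed 0.110 CPM in any of the 6 sums. Fam81a was at 0.503 against 0.274 CPM and Ccer1 had 0 UMIs.

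Lists of hair cell stages were compared in the same way. Of 13 early hair cell genes measured, 6 were higher on day 5 than on day 25 and 1 lower, with a median log2 difference of 0.53 against -0.25 over all genes. Hes6, a gene of hair cell precursors, was at 231 against 24.7 CPM, Atoh1 at 86.1 against 13.6 CPM and Jag2, a Notch ligand, at 199 against 42.6 CPM. Atoh1 and Hes6 also stood higher in expansion, at 199.6 and 545 CPM, the order of groups seen for Ccer2 and Cryab. Of 16 maturation genes measured 0 were higher and 11 lower (median -1.51), led by Slc26a5 at 0.755 against 377 CPM and Ocm, the calcium buffer oncomodulin, at 71.2 against 2787 CPM. Of 27 hair cell genes 7 were higher and 5 lower, with a median of 0.53.

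Of 13 cilium genes measured, 5 were higher on day 5 and 1 lower (median 0.80). Pifo was at 133 against 22.4 CPM, Cfap126 at 31.2 against 5.65 CPM and Dynlrb2, a dynein light chain gene, at 371 against 76.2 CPM. In expansion they were at 44.9, 3.82 and 76.4 CPM. Their highest level was thus in day 5 Pou4f3 cells, as for Fam81b and Tmem91. Among 6 peptide granule genes measured, 1 was higher (Pam, 20.1 against 4.61 CPM) and 1 lower (Scg5, 236 against 506 CPM), with a median of -0.15. Tac1, which encodes substance P, had 0 UMIs on day 5 and was at 37.2 CPM on day 25.

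Markers of other cell types also moved between the Pou4f3 cells of day 5 and day 25. All 10 mesenchyme markers had UMIs in both, with a summed level of 491 CPM on day 5 and 179 CPM on day 25, against 4227 and 1767 CPM in the other cells. Of 4 measured, 3 were higher on day 5, led by Otor and Dcn (116 against 25.3 CPM). Of the glia list only the transcription factor gene Sox10 was measured, and it was higher on day 5 (26.9 against 6.58 CPM). It stood at 173 and 132 CPM in the other cells, and whether it marks glia here was not tested. Supporting cell markers summed to 1326 and 3908 CPM, and 2 of 9 measured were higher and 7 lower, led by Jag1 (1.26 against 38.8 CPM). Neuron markers summed to 599.7 and 1374 CPM, with Prph at 0 on both days, and 0 of 5 measured were higher and 3 lower. Macrophage markers (11.6 and 2.41 CPM) and melanocyte markers (4.03 and 4.99 CPM) were low on both days. Their part in the result was not tested. In the day 5 cells with collagen UMIs and no Epcam UMI the levels were 8.08 CPM for Ccer2, 1.19 CPM for Grp and for Tmem91, 0.475 CPM for R3hdml, 0.238 CPM for Fam81b and 84.3 CPM for Cryab, all below the day 5 Pou4f3 cells.

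Outside the Pou4f3 cells most Cryab UMIs were in cells with at least 2 UMIs of Epcam, an epithelial adhesion gene. These cells held 318185 of 352574 Cryab UMIs in expansion, 43506 of 46363 on day 5 and 18678 of 18898 on day 25. Their Cryab level was 2387 CPM in expansion, 464 CPM (459.8 to 468.5) on day 5 and 378 CPM (372 to 383) on day 25. Over all the other cells, with or without Epcam, it was 2039, 365 and 346 CPM. The 50 day 25 cells with at least 2 UMIs of Lgr5, the progenitor receptor gene, had 1485 CPM (1416 to 1555), well above the 346 CPM of all other day 25 cells. The remaining 5 genes were each at most 1.67 CPM in the same Lgr5 cells. In expansion the dividing cells had 2116 CPM of Cryab, close to the other expansion cells. The 41 dividing day 25 cells were also high, at 1041 CPM (977 to 1108), so the high level was not particular to the Lgr5 cells. These gates may overlap. A single day 25 cell outside the Pou4f3 cells held 385 Cryab UMIs, and the intervals do not cover such differences between cells.

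Fam81b outside the Pou4f3 cells was looked for with a gate of cilium genes. It took other cells with at least 2 UMIs of Foxj1, Tekt1, Rsph1 and Cfap126 together. These genes were themselves called higher in Pou4f3 cells than in other cells on day 5, so the gate need not mark a separate cell type. On day 5 Fam81b was at 3.91 CPM (2.58 to 5.70) in the gated cells, in 22 of 280 cells, against 0.771 CPM in all other cells. The hair cell genes Otof, at 13.9 against 4.22 CPM, and Pcp4, at 660 against 179 CPM, were also higher in these cells. Ccer2 was at 53.9 against 23.2 CPM. The median depth was 20132.5 UMIs, against 5809 in all other cells. In expansion and on day 25 these cells held 0 and 1 Fam81b UMIs. Fam81b in the gated day 5 cells was thus above its level in all other cells together with Otof, Pcp4 and Ccer2. It was far below the 50.8 CPM of Pou4f3 cells.

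The genes closest to the set were ranked by the Pearson correlation of log2(CPM + 1) over the 6 sums, which share libraries, among 8359 genes. Closest to the mean profile were Tprn (0.991), Scn11a, Prr15l, Dhx33, Selenom, Pkn3, Fgf11, Ccser2, Samd14 and Nt5m (0.968). Tprn was at 53.5, 42.8 and 3.73 CPM in the Pou4f3 cells of expansion, day 5 and day 25. Closest to Ccer2 were Grp, Kdm4b and Arhgdig, and closest to Grp were Phtf1os, Ccer2 and Arhgdig. R3hdml was closest to Tprn, Selenom and Scn11a, and Tmem91 to Ccser2, Scn11a and Samd14. Fam81b was closest to Bbip1, Tac4 and Il25, and Cryab to Hspb2 (0.971), Mpped2 and Tstd1. Between the 6 genes, correlations were 0.87 to 0.99 without Cryab and 0.27 to 0.53 with it. The 6 sums include the day 5 and day 25 Pou4f3 cells that chose the genes, so all these correlations are a description only.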

How the data were processed

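Raw UMI counts per gene and cell barcode were deposited by the authors as 3 matrices, made with Cell Ranger 3.0.1 (expansion, day 5) and 3.1.0 (day 25), as the file headers record. GRCm38 and hg38 are the builds in the submitters' processing notes; the annotation release and strand setting are not given in the sources used here. Barcodes with under 500 genes (935, 550 and 120) or over 20% mitochondrial UMIs (311, 100 and 264) were removed. Each library's doublets were called against simulated doublets (1500 genes, 30 components, an expected 0.8% per 1000 barcodes): 2700, 606 and 125 were removed, 9.64%, 4.38% and 2.00% against an expected 22.4%, 11.1% and 5.01%, so doublets remain. Of those removed, 43, 57 and 78 had at least 2 Pou4f3 UMIs. UMIs were summed in 6 sums (python 3.11.15, numpy 2.4.6, scipy 1.17.1, edgeR 4.0.16 for TMM scaling only). Called genes exclude mitochondrial ones. Intervals and the floor of 3 UMIs cover counting error only.

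The 6 genes and the 20 gene lists were chosen with earlier results of these data known. Besides the 6 genes, those named are Pou4f3, the list members with the largest day 5 against day 25 differences, family members with at least 5 CPM in any sum, and the closest profiles (10 for the mean, 3 for each gene), leaving out unnamed models, ribosomal and mitochondrial genes. Opposite-strand neighbours, genes near them in rank, family members under 5 CPM, Jag2, Dynlrb2 and Otof were named after their values were seen. In simulated counts with 200 changed genes, the 2-fold rule called 67 of 67 genes changed 3-fold, 66 of 66 changed 5-fold and 0 of 67 changed 1.5-fold, and 0 of 6482 unchanged genes. With 1 library in each group, variation between libraries could not be estimated, so these counts do not measure calls that it would cause. The summed level of the glia markers is not reported here.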

Additional observations from a re-analysis of the deposited data

Results flagged for a closer look

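Cryab had effects of opposite sign under the same contrast in different libraries. The log2 difference of CPM + 1 between Pou4f3 cells and other cells was 1.35 on day 5 and -2.45 on day 25. The difference between the libraries was not tested, since each day is 1 library.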

How the results depend on the processing

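Of 492 values of the 6 genes under 13 other settings and 1 chosen after the data had been seen (other cells without a Pou4f3 UMI), 0 called values changed direction, 331 stayed within the counting interval and 161 moved. The count of 6 genes higher on day 5 than on day 25 in Pou4f3 cells was 6 under each. Genes higher on day 5 than in expansion were 2 in place of 1 with called doublets kept. Genes higher in Pou4f3 than in other cells on day 25 were 4 in place of 2 with a bound of 1 CPM. Genes higher in other cells of day 5 than of day 25 were 1, against 2 with a bound of 1 CPM, 0 with a gate of 1 Pou4f3 UMI, 0 with at least 2000 UMIs per cell and 0 with other cells without a Pou4f3 UMI, as Ccer2 then did not reach 20 CPM. Day 5 against expansion, R3hdml was called lower with a gate of 1 UMI (log2 -1.10) and was at -0.22 with cells thinned to 2000 UMIs. Cryab fell in neither class with cells weighted equally (-0.91). The median of all genes, day 5 against day 25 in Pou4f3 cells, was -0.25, -0.02 with median of ratios and -0.15 with TMM scaling. No paired analysis was possible because each group held 1 library.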
